A study of Mus musculus with 6 samples.

Results

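The RNAs of 10 growth factor receptor tyrosine kinases were followed in Ocy454 cells, a mouse cell line used as a model of osteocytes. Egfr, Erbb2, Erbb3, Fgfr1, Fgfr2, Fgfr3, Met, Axl, Igf1r and Insr were taken by gene symbol from the 39179 genes of the deposited table, and each symbol matched 1 row. The cells, a single cell subclone per the methods of the study, grew to confluency at 33 °C, were kept for 14 days at 37 °C and were then exposed for 4 h to vehicle, to PTH (1 nM) or to YKL-05-093 (0.5 µM), an inhibitor of the salt-inducible kinases (SIKs). Each of the 3 groups had 2 libraries, experimental duplicates per the methods of the study. Whether duplicates were separate cultures is not given in the sources used here, so the p-values measure the spread between these libraries, which may be technical.

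Receptor tyrosine kinases are single-pass membrane proteins whose cytoplasmic kinase domains phosphorylate each other once a ligand has brought receptors together, which passes the signal on to the RAS-ERK and PI3K-AKT pathways. In bone, FGF receptors shape the growth and maturation of osteoblasts and chondrocytes, and IGF1 and insulin receptors promote bone formation. EGF-like ligands are made by bone cells in response to PTH. Several of these receptors are possible off-targets of the SIK inhibitor. In the study's panel of recombinant kinases, the inhibitor left ERBB2, EGFR and FGFR2 at a lower share of control than SIK2. FGFR3, INSR and AXL were reduced less than SIK2, and MET and IGF1R were at or near control. FGFR1 and ERBB3 were not in the panel, which used a lower concentration than the cells received. RNA levels measure neither kinase activity nor the binding of a drug.

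Expression is given as RPKM, the reads of a gene divided by its length in kilobases and by the depth of its library. The libraries held between 17505798 and 27983585 reads. Osteoblast and bone matrix markers (Col1a1, Bglap, Alpl, Runx2, Sp7) summed to between 396 and 556 RPKM per library, most of it Col1a1, while single markers moved with the treatments. Sp7 was at 46.0 and 45.5 RPKM in vehicle, 12.2 and 11.1 with PTH and 22.4 and 29.6 with YKL-05-093. Runx2 was at 19.5 and 13.0 RPKM in vehicle and 7.87 and 7.02 with PTH, and at 11.6 and 12.6 with YKL-05-093. Bglap was at 6.61 and 11.5 RPKM in vehicle, 27.1 and 25.3 with PTH and 11.9 and 11.4 with YKL-05-093. The 6 osteocyte markers summed to between 55.7 and 73.3 RPKM in the vehicle libraries, 165 and 176 in those with PTH, and 98.4 and 99.1 in those with YKL-05-093, nearly all of it Pdpn. The part of these marker shifts in the receptor values was not tested. The defining osteocyte genes Sost, Fgf23 and Mepe were each at or under 0.136 RPKM in all 6 libraries. They reached at most 3, 2 and 4 reads in a library, so they did not bear out the osteocyte label. The paper states that the cells were routinely assayed for SOST expression, and it reports SOST suppression in them by RT-qPCR. The source of this difference was not tested. The other osteocyte markers of the list, Dmp1 and Phex, were detected in all 6, at 0.376 to 1.15 and 0.764 to 4.93 RPKM. The summed markers of adipocytes, endothelial cells and epithelial cells each stayed at or under 0.395 RPKM, with Cdh5 at 0 in all libraries. Of the 3 blood cell and macrophage markers, which summed to between 3.70 and 4.44 RPKM, Ptprc and Emr1 stayed at or under 0.0263 RPKM. Cd68 made up nearly all of that sum, at 3.69 to 4.42 RPKM.

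The vehicle libraries stood apart from each other in a way that touches every comparison with vehicle. Over all tested genes, the 2 libraries of a group differed by a median of 0.333 on the log2 scale in vehicle, 0.108 in PTH and 0.103 in YKL-05-093. It went with gene length. With the genes in 4 equal classes of length, the median log2 value relative to the mean of the 6 libraries went from -0.22 in the shortest class to 0.31 in the longest in vehicle replicate 1, and from 0.13 to -0.12 in vehicle replicate 2. Of the 10 receptor genes, 9 were in the longest class, above 5187 bases, and all 10 were higher in vehicle replicate 1, by 1.22 to 1.92 times. Of all tested genes in the longest class, 90.0% were higher in that library. In bulk RNA, fewer cells that express a gene and less RNA per cell cannot be told apart.

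The upstream sequence of the genes is shown first for the members whose levels the results turn on. The RefSeq promoter table (GRCm38.p6) held 7 of the 10 genes, without Fgfr1, Erbb3 and Insr. The stretch from 250 to 51 bases before the start annotated in RefSeq is printed, 5′ to 3′ on the strand of the gene. The gene positions given later come from GENCODE M21, and their starts can differ from those of RefSeq. The windows are chr5:33721474-33721673 for Fgfr3, chr7:67952007-67952206 for Igf1r, chr11:16751953-16752152 for Egfr and chr11:98412234-98412433 for Erbb2, all on the plus strand. Fgfr3 and Igf1r passed the test in the direct comparison of the treatments, Egfr had the lowest values in the YKL-05-093 libraries, and Erbb2 carries the core of the cAMP response element, the DNA motif bound by CREB downstream of the PTH receptor. Capitals mark GC boxes (GGGCGG or CCGCCC) and cores of the cAMP response element (TGACG or CGTCA).
Fgfr3: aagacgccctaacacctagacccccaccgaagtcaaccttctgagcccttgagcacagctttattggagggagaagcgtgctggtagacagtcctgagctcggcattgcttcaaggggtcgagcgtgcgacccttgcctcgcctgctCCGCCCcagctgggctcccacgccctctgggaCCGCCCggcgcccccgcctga
Igf1r: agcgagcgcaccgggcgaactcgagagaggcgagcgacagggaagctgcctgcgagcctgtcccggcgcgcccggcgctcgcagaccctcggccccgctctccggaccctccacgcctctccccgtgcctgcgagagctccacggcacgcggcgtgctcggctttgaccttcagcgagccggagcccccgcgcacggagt
Egfr: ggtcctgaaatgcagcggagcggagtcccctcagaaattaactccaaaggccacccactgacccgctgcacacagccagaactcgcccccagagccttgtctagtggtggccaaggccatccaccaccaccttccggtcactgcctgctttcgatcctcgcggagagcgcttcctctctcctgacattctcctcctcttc
Erbb2: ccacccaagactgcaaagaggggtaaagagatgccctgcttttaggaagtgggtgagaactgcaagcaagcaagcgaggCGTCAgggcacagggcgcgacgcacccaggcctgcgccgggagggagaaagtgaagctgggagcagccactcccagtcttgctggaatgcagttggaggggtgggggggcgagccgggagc

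Erbb2 was the only one of the 7 genes with such a core in this stretch, and 12.7% of the 32851 promoter windows of the same length held one. A GC box, the motif bound by SP1-like factors, stood in the windows of Fgfr3, which has 2 in the stretch shown, and Met, against 24.6% of all windows. A second RefSeq window of Fgfr3, chr5:33722056-33722255, is not shown and also held 2. None of the 7 genes had the full element TGACGTCA, held by 0.828% of all windows, or a TATA box (TATAAA or TTTATA), held by 9.14%. All motifs were searched on both strands, and a core also counts where it lies inside a full element. The windows shown were rich in G and C, with 65.0% in Fgfr3, 74.5% in Igf1r, 60.0% in Egfr and 63.5% in Erbb2, against a median of 51.5% over all windows. Of those not shown, Met was at 73.0%, Axl at 56.5%, the second window of Fgfr3 at 74.5% and Fgfr2 at 44.0%. A match or the lack of one describes the letters of these windows only.

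The 10 receptors spanned a wide range of expression and fell into a broadly stable order. In vehicle, Axl stood first with 31.5 ± 4.37 RPKM (SD, n = 2), followed by Fgfr1 and Fgfr2, whose libraries overlapped, and by Erbb2. Fgfr3, Igf1r and Egfr came next and overlapped each neighbour in turn, and Insr, Met and Erbb3 closed the order without overlap. After PTH, Fgfr1 moved above Axl, while Erbb2 and Igf1r overlapped. After YKL-05-093, Axl was again first, Erbb2 and Fgfr3 overlapped, and Egfr stood below Insr. Among the genes that passed the filter on low values, Axl lay between the 83.3 and 87.1 percentile of expression in the 6 libraries and Met between the 2.6 and 11.4 percentile. The 10 genes together summed to 137 and 101 RPKM in the vehicle libraries, 126 and 121 in those with PTH, and 110 and 114 in those with YKL-05-093, and the treated libraries lay within the range of the vehicle pair.

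**Figure D1:**
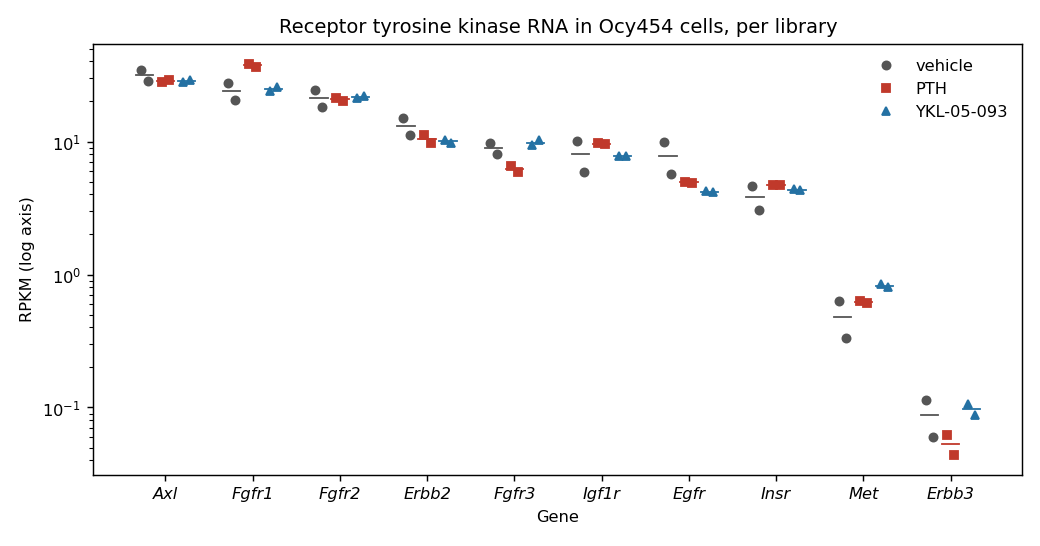
RPKM (log axis) of the 10 receptor genes in each of the 6 libraries, with vehicle as circles, PTH as squares and YKL-05-093 as triangles, and a line at the mean of each pair. The vehicle circles are far apart for Egfr (9.84 and 5.73) and Igf1r (10.1 and 5.90), while Fgfr1 after PTH (38.6 and 36.2) and Fgfr3 after PTH (6.53 and 5.94) stand away from both other groups.

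Of the 10 members, 9 passed the filter of 0.5 RPKM in at least 2 libraries and were tested with limma. Against vehicle, 0 of the 9 passed an adjusted p-value of 0.05 after PTH and 0 of the 9 after YKL-05-093. Across all tested genes, 2.19% passed for PTH and 0.666% for YKL-05-093. At an unadjusted p-value under 0.05, 3 members stood out after PTH (Fgfr1, Fgfr3 and Egfr) and 2 after YKL-05-093 (Egfr and Met), with backgrounds of 13.3% and 8.67%. The libraries of the 2 groups did not overlap in 5 members for PTH and 3 for YKL-05-093, against 43.1% and 37.8% of all tested genes. By voom on the recovered reads, 0 members passed in either comparison. Between PTH and YKL-05-093, 3 of the 9 passed, where 9.97% of all tested genes did, and 5 had an unadjusted p-value under 0.05 (background 22.3%). Fgfr1 and Igf1r were higher after PTH, with a background of 4.85% in that direction, and Fgfr3 was lower, with a background of 5.11%. None of the 3 changed more than 2-fold, the further limit used in the study, which 1.21% of tested genes passed as well as the test. For PTH and YKL-05-093 against vehicle, 1.91% and 0.666% did. The 2 comparisons with vehicle share their control libraries, and the direct comparison does not use them.

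**Figure D2:**
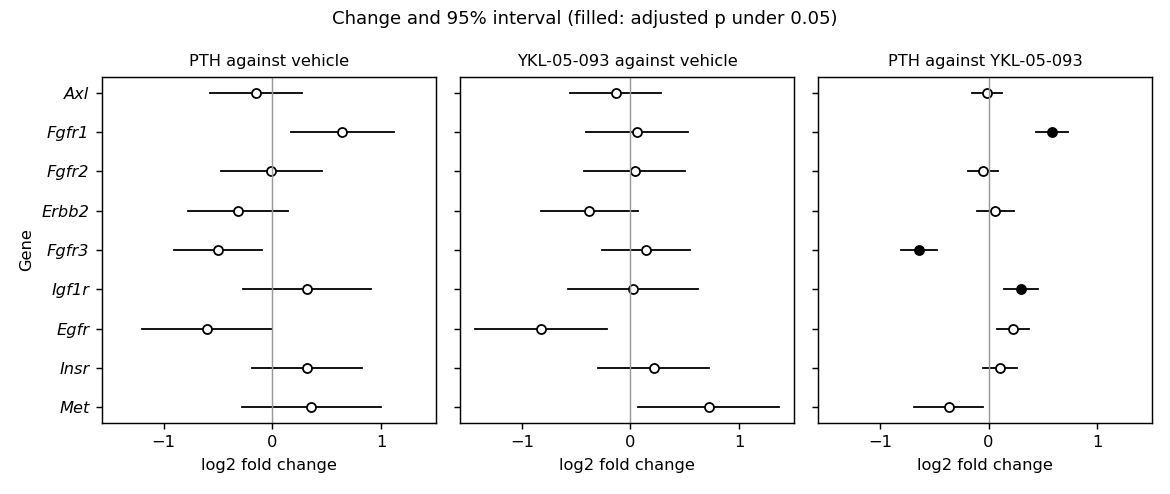
Log2 fold change (x axis) of the 9 tested receptor genes in the 3 comparisons, with the 95% interval from limma as a line and a filled circle for an adjusted p-value under 0.05. Only Fgfr1, Fgfr3 and Igf1r are filled, all in the comparison of PTH with YKL-05-093, where the intervals are narrower than in the comparisons with vehicle.

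Among the tested members, Fgfr1 and Fgfr3 differed most between the treatments. Fgfr1 (ENSMUSG00000031565, chr8:25513654-25575718, plus strand), the receptor of many FGFs in mesenchymal cells, had 27.6 and 20.6 RPKM in the vehicle libraries, 38.6 and 36.2 in those with PTH, and 23.9 and 25.9 in those with YKL-05-093. Both PTH libraries lay above the other 4, and the YKL-05-093 libraries lay within the vehicle range. Fgfr1 was 1.50-fold higher after PTH than after YKL-05-093 (log2 fold change 0.58, SE 0.07, adjusted p = 2.74e-05). Against vehicle, its log2 fold change was 0.65 after PTH (95% interval 0.17 to 1.12, adjusted p = 0.215) and 0.06 after YKL-05-093 (-0.41 to 0.53, adjusted p = 0.965).

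Fgfr3 (ENSMUSG00000054252, chr5:33721674-33737068, plus strand), known for restraining the growth of cartilage, went the other way. It had 9.75 and 8.02 RPKM in the vehicle libraries, 6.53 and 5.94 in those with PTH, and 9.34 and 10.2 in those with YKL-05-093. Both PTH libraries were below the other 4. Fgfr3 was 1.57-fold lower after PTH than after YKL-05-093 (log2 fold change -0.64, SE 0.08, adjusted p = 3.11e-05). Against vehicle it stood at -0.50 after PTH (-0.91 to -0.09, adjusted p = 0.268) and 0.14 after YKL-05-093 (-0.27 to 0.55, adjusted p = 0.889).

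Fgfr2 (ENSMUSG00000030849, chr7:130162451-133123350, minus strand), a receptor expressed in osteoblast progenitors, had 24.3 and 18.1 RPKM in the vehicle libraries, 21.3 and 20.3 in those with PTH, and 21.1 and 22.0 in those with YKL-05-093. The 4 treated libraries lay between the vehicle libraries. The interval of the difference between PTH and YKL-05-093 was -0.19 to 0.09 on the log2 scale, and those against vehicle were -0.48 to 0.45 for PTH and -0.42 to 0.50 for YKL-05-093.

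Because both genes of a ratio are measured in the same library, the 3 FGF receptors were also set against each other, a choice made after their values were seen. The ratio of Fgfr1 to Fgfr2 in RPKM was 1.14 in both vehicle libraries, 1.81 and 1.78 with PTH, and 1.13 and 1.18 with YKL-05-093. Fgfr3 to Fgfr2 was 0.401 and 0.444 in the vehicle libraries, 0.307 and 0.293 with PTH, and 0.443 and 0.464 with YKL-05-093. Of the summed RPKM of the 3 receptors, Fgfr1 made up 44.4% ± 0.448 in vehicle, 58.0% ± 0.102 with PTH and 44.3% ± 0.479 with YKL-05-093 (SD, n = 2 each). The vehicle libraries, which differ by 1.34 times in each of Fgfr1 and Fgfr2, thus lay close together in this share, and both PTH libraries lay outside the range of the other 4. An exact two-sided permutation test of 2 libraries against 2 cannot give a p-value below 0.333, so no test is given for the ratios.

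**Figure D3:**
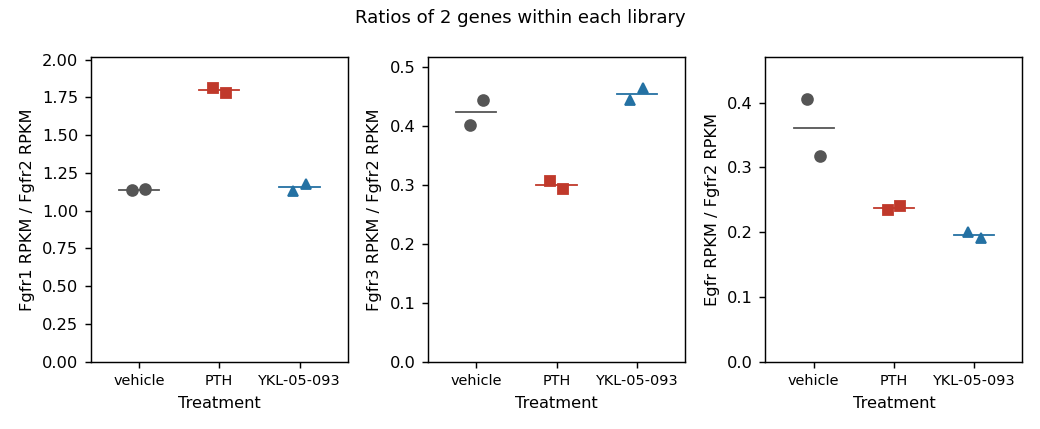
RPKM of Fgfr1, Fgfr3 and Egfr divided by the RPKM of Fgfr2 in the same library (y axes from 0), for the 2 libraries of each treatment, with a line at the mean. The PTH libraries stand above the other 4 for Fgfr1 and below them for Fgfr3, and for Egfr the vehicle libraries (0.405 and 0.317) stand above both treatments.

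Exons of other genes overlap 4 of the members in the GENCODE M21 annotation. Ctbp2 shares exonic sequence with Fgfr2 on the same strand, Gm16159 lies opposite Fgfr1, Mien1 opposite Erbb2 and G630022F23Rik opposite Fgfr3. The libraries were directional, but the strand setting of the counting is not given in the sources used here, so reads of such a pair may not have been told apart. Gm16159 reached at most 0.447 RPKM. Mien1 was at 11.5 to 18.4 RPKM, with Erbb2 at 9.72 to 15.1. Ctbp2, where strand cannot separate the genes, was at 5.72 and 5.13 RPKM in vehicle, 3.99 and 3.88 with PTH, and 3.90 and 4.23 with YKL-05-093. Its 4 treated libraries were below the vehicle pair, and its part in the Fgfr2 values, by which the ratios divide, was not tested. The counting used Ensembl release 75, and whether these overlaps are present in it was not tested. The length behind the RPKM of Fgfr2 was 8158 bases, while its merged exons in GENCODE M21 add up to 10306. The RefSeq window of Fgfr2, chr7:130266859-130267058, lies inside the GENCODE span of the gene.

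In the EGF receptor family, Egfr and Erbb2 had their highest values in vehicle. Egfr (ENSMUSG00000020122, chr11:16752203-16918158, plus strand), the receptor of EGF, TGFα and amphiregulin, had 9.84 and 5.73 RPKM in the vehicle libraries, 4.97 and 4.88 in those with PTH, and 4.23 and 4.18 in those with YKL-05-093. All 4 treated libraries lay below both vehicle libraries, and those of YKL-05-093 were the lowest. Against vehicle, the log2 fold change was -0.82 after YKL-05-093 (SE 0.26, 95% interval -1.43 to -0.22, adjusted p = 0.360) and -0.60 after PTH (SE 0.25, interval -1.20 to -0.00305, adjusted p = 0.372). Between the treatments it was 0.22 higher after PTH (interval 0.07 to 0.37, adjusted p = 0.0552).

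Erbb2 (ENSMUSG00000062312, chr11:98412470-98437716, plus strand), which has no known ligand of its own and signals as the partner of other ERBB receptors, had 15.1 and 11.3 RPKM in the vehicle libraries, 11.2 and 9.72 in those with PTH, and 10.2 and 9.81 in those with YKL-05-093. The treated libraries were again all below the vehicle pair, although the highest PTH library and the lowest vehicle library differed by less than 0.1 RPKM. The log2 fold changes against vehicle were -0.32 for PTH (-0.78 to 0.14, adjusted p = 0.590) and -0.38 for YKL-05-093 (-0.83 to 0.07, adjusted p = 0.670). Divided by Fgfr2, Erbb2 was at 0.622 and 0.624 in the vehicle libraries, 0.528 and 0.479 with PTH, and 0.484 and 0.447 with YKL-05-093.

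Erbb3 (ENSMUSG00000018166, chr10:128567523-128589652, minus strand), a neuregulin receptor with little kinase activity, was nearly silent. It had 0.114 and 0.0597 RPKM in the vehicle libraries, 0.0618 and 0.0438 in those with PTH, and 0.107 and 0.0886 in those with YKL-05-093, from 5 to 13 reads a library. It did not pass the filter, and a change was not detectable at this depth.

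The insulin and IGF1 receptors form disulfide-linked dimers, also with each other, and act through the IRS adaptors. Igf1r (ENSMUSG00000005533, chr7:67952827-68233668, plus strand) had 10.1 and 5.90 RPKM in the vehicle libraries, 9.78 and 9.53 in those with PTH, and 7.82 and 7.84 in those with YKL-05-093. The treated libraries of each group lay close together and within the vehicle range. Igf1r was 1.23-fold higher after PTH than after YKL-05-093 (log2 fold change 0.30, SE 0.08, adjusted p = 0.0169). Against vehicle the log2 values were 0.32 (-0.27 to 0.91, adjusted p = 0.683) for PTH and 0.02 (-0.58 to 0.62, adjusted p = 0.992) for YKL-05-093. The length behind its RPKM was 4468 bases, while its merged exons in GENCODE M21 add up to 16770, so its place in the order of levels depends on the annotation.

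Insr (ENSMUSG00000005534, chr8:3122061-3279617, minus strand) had 4.61 and 3.03 RPKM in the vehicle libraries, 4.69 and 4.69 in those with PTH, and 4.38 and 4.32 in those with YKL-05-093. The PTH libraries were above the other 4, by less than 0.1 RPKM over vehicle replicate 1. The log2 fold change against vehicle was 0.32 for PTH (-0.19 to 0.83, adjusted p = 0.628) and 0.21 for YKL-05-093 (-0.30 to 0.73, adjusted p = 0.868), and that between the treatments was 0.11 (-0.05 to 0.26, adjusted p = 0.440). The ratio of Igf1r to Insr was 2.19 and 1.95 in the vehicle libraries, 2.08 and 2.03 with PTH, and 1.79 and 1.82 with YKL-05-093.

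Met and Axl stood at opposite ends of the tested members. Met (ENSMUSG00000009376, chr6:17463800-17573980, plus strand), the receptor of HGF, had 0.631 and 0.332 RPKM in the vehicle libraries, 0.633 and 0.606 in those with PTH, and 0.848 and 0.805 in those with YKL-05-093, from 74 to 137 reads. Both YKL-05-093 libraries were above the other 4. The log2 fold change of YKL-05-093 against vehicle was 0.72 (SE 0.27, interval 0.07 to 1.37, adjusted p = 0.498), and PTH stood 0.36 below YKL-05-093 on the log2 scale (-0.68 to -0.05, adjusted p = 0.156). With a pseudocount of 0.1 RPKM, these values understate the change of a gene this low.

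Axl (ENSMUSG00000002602, chr7:25757273-25788705, minus strand), the receptor of GAS6, had 34.6 and 28.4 RPKM in the vehicle libraries, 27.9 and 28.8 in those with PTH, and 28.0 and 29.2 in those with YKL-05-093. The treated groups overlapped each other and vehicle. The difference between PTH and YKL-05-093 was -0.01 (-0.15 to 0.13) on the log2 scale, and the intervals against vehicle were -0.57 to 0.28 for PTH and -0.55 to 0.29 for YKL-05-093.

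The comparisons with vehicle changed with the vehicle library that was used. A single vehicle library has no spread of its own, so only sizes of change are given here. The log2 fold change of Fgfr1 after PTH was 0.85 without vehicle replicate 1 and 0.44 without vehicle replicate 2. Egfr after YKL-05-093 stood at -1.21 without vehicle replicate 2 and at -0.44 without vehicle replicate 1. Fgfr3 after PTH stood at -0.64 without vehicle replicate 2 and at -0.36 without vehicle replicate 1. Without vehicle replicate 2, Egfr (-0.98), Erbb2 (-0.53) and Axl (-0.29) stood below vehicle after PTH, and Erbb2 (-0.59) after YKL-05-093. Without vehicle replicate 1 these stood, in that order, at -0.21, -0.11, -0.0055 and -0.17. Igf1r and Insr after PTH stood at 0.70 and 0.61 without vehicle replicate 1, and at -0.061 and 0.026 without vehicle replicate 2. The values of Igf1r and Met after PTH, and those of Fgfr1, Fgfr2, Igf1r and Insr after YKL-05-093, changed sign without vehicle replicate 2. A lone library is assumed in these fits to vary like the others. Calls from fits with a library left out, given further below, therefore only describe how far calls depend on single libraries.

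**Figure D4:**
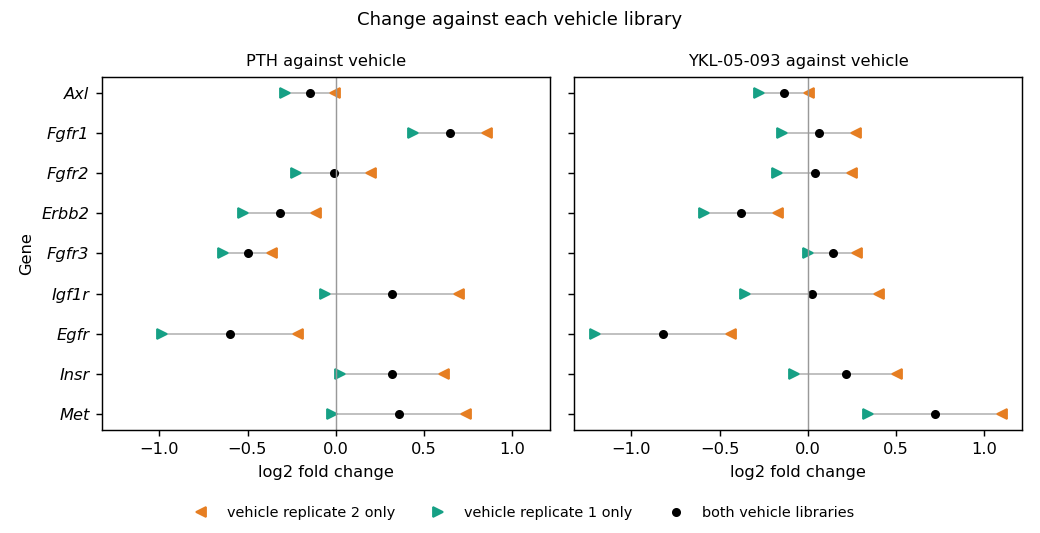
Log2 fold change (x axis) of the 9 tested receptor genes for each treatment against both vehicle libraries (circles), vehicle replicate 1 only (triangles to the right) and vehicle replicate 2 only (triangles to the left). For Fgfr1 after PTH the triangles stand at 0.44 and 0.85, and for Erbb2 after PTH at -0.53 and -0.11.

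After the trend with gene length was removed from each library, a step added once the vehicle libraries had been seen, Fgfr1 was higher after PTH than in vehicle (log2 fold change 0.81, adjusted p = 0.0032). Insr was also higher (0.51, adjusted p = 0.0291), and Egfr was lower after YKL-05-093 than in vehicle (-0.64, adjusted p = 0.0212). Whether length accounts for the gap between the vehicle libraries was not tested. In the direct comparison, the calls of Fgfr1, Fgfr3 and Igf1r were lost without either PTH library, where 0 of all tested genes passed, and in a single fit of all 6 libraries, which brings in the spread of the vehicle pair (adjusted p from 0.112 to 0.938). They were also lost without the filter on low values (0.0535 to 0.111) and without a trend of the prior variance (0.0975 to 0.160). Fgfr3 did not pass without YKL-05-093 replicate 2 (adjusted p = 0.0551). Igf1r did not pass without either YKL-05-093 library (0.175 and 0.197), with the variance trend on the mean log2 value (0.0750) or in a single fit after removal of the length trend (0.510), and was called in 7 of its 16 alternatives, against 11 for Fgfr1 and 10 for Fgfr3. The directions of the 3 genes held in each of these fits.

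Around the receptors, lists of their ligands, partners and regulators were read for the same comparisons. Of all tested genes, 1.26% were called higher and 0.94% lower after PTH than in vehicle. For YKL-05-093 against vehicle these shares were 0.393% and 0.274%, and for PTH against YKL-05-093 they were 4.85% and 5.11%. The counts of each list below are to be read beside these shares. Of the 49 other receptor tyrosine kinases, 23 were tested, with 0 past the test after PTH, 1 higher after YKL-05-093, and 4 higher and 2 lower after PTH than after YKL-05-093. Their median log2 fold changes were -0.02, -0.07 and 0.01, against -0.03, -0.04 and 0.01 for all tested genes. Kdr, the main VEGF receptor, rose from 0.529 ± 0.0748 RPKM (SD, n = 2) in vehicle to 1.58 ± 0.203 after YKL-05-093 (log2 fold change 1.42, adjusted p = 0.0377), with 0.936 ± 0.175 after PTH. Epha2, an ephrin-A receptor, was at 5.18 ± 0.305 RPKM with PTH and 2.01 ± 0.131 with YKL-05-093 (log2 fold change 1.32, adjusted p = 3.86e-07), with 3.78 ± 0.0638 in vehicle. Epha3 was also higher after PTH than after YKL-05-093 (0.43, adjusted p = 0.00117), and Ror2, a WNT5A receptor, was lower (-0.32, adjusted p = 0.0479).

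Of 36 ligands of the members, 14 were tested. After PTH 2 were higher than in vehicle, after YKL-05-093 1 was higher (backgrounds in this direction 1.26% and 0.393%), and between the treatments 2 were higher and 2 lower after PTH, with list medians of 0.20, 0.18 and 0.13. Tgfa, a ligand of Egfr, was at 0.387 ± 0.141 RPKM in vehicle, 1.70 ± 0.698 with PTH and 0.848 ± 0.0764 with YKL-05-093 (SD, n = 2), with a log2 fold change of 1.86 for PTH against vehicle (adjusted p = 0.0366). Igf1, a ligand of Igf1r, rose from 1.51 ± 0.460 RPKM to 3.85 ± 0.0687 after PTH (1.33, adjusted p = 0.0271) and was at 3.43 ± 0.402 after YKL-05-093. Igf2, another ligand of Igf1r, stood at a mean of 20.4 RPKM in vehicle, 23.0 with PTH and 24.0 with YKL-05-093. It was not called against vehicle (adjusted p = 0.763 for PTH and 0.812 for YKL-05-093). Hgf, the ligand of Met, rose from 4.31 ± 0.985 RPKM to 11.4 ± 1.42 after YKL-05-093 (1.40, adjusted p = 0.0458) and stood at 7.95 ± 0.342 after PTH. Fgf7, which signals through an isoform of Fgfr2, was higher after PTH than after YKL-05-093 (0.48, adjusted p = 0.000153). Gas6, the ligand of Axl, was the highest of those tested, with a mean of 76.2 RPKM in vehicle, 70.5 with PTH and 72.1 with YKL-05-093.

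Of 38 co-receptors, adaptors and phosphatases, 32 were tested. After PTH, 1 was higher and 1 lower than in vehicle, after YKL-05-093 1 was higher, and between the treatments 4 were higher and 3 lower after PTH, with medians of -0.07, -0.06 and 0.01. Shc2, an adaptor that binds phosphorylated receptors, rose from 1.71 ± 0.192 RPKM in vehicle to 11.9 ± 0.937 after PTH (log2 fold change 2.73, adjusted p = 0.000991) and 7.20 ± 0.123 after YKL-05-093 (2.01, adjusted p = 0.00801). Grb14, an adaptor that inhibits the insulin receptor, fell from 5.38 ± 0.450 to 2.92 ± 0.00153 RPKM after PTH (-0.86, adjusted p = 0.0420). Frs2, the docking protein of FGF receptors, was at 8.51 ± 0.541 RPKM after PTH and 13.6 ± 0.776 after YKL-05-093 (-0.67, adjusted p = 1.39e-05), with 13.1 ± 4.08 in vehicle. Irs1, the docking protein of the insulin and IGF1 receptors, was at 20.3 ± 0.540 RPKM after PTH and 14.3 ± 0.00389 after YKL-05-093 (0.50, adjusted p = 5.93e-05). In vehicle Irs1 was at 29.4 ± 10.6 RPKM, with both libraries above all treated ones. The heparan sulfate proteoglycan Sdc4 was also higher after PTH than after YKL-05-093 (0.47, adjusted p = 0.000788).

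Among 24 receptor inhibitors, ubiquitin ligases and shedding proteases, 21 were tested. After PTH 1 was higher than in vehicle, after YKL-05-093 1 was lower, and between the treatments 6 were higher after PTH and 0 lower, with medians of -0.07, -0.18 and 0.07. Errfi1 (MIG6), an inhibitor of EGFR and ERBB2, rose from 9.87 ± 0.201 RPKM in vehicle to 19.3 ± 0.227 after PTH (0.96, adjusted p = 0.0254) and was at 11.99 ± 0.302 after YKL-05-093. Socs5, a ubiquitin ligase adaptor that lowers EGFR, fell from 4.69 ± 1.19 to 1.66 ± 0.147 RPKM after YKL-05-093 (-1.42, adjusted p = 0.0458). Flrt2, a membrane protein of the family that binds FGF receptors, was at 17.0 ± 0.363 RPKM after PTH and 7.89 ± 0.0319 after YKL-05-093 (1.10, adjusted p = 1.73e-08). In vehicle it was at 7.57 ± 2.68 RPKM. The protease Adam19 was also higher after PTH than after YKL-05-093 (0.63, adjusted p = 0.000812).

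ERK output genes, which are transcribed when receptor tyrosine kinases activate the RAS-ERK pathway, differed most. Of 21 genes, 17 were tested, and 6 were lower than in vehicle after YKL-05-093 and 3 after PTH, with 0 higher in either. The shares of all tested genes called lower were 0.274% and 0.940%. Between the treatments, 13 of the 17 were higher after PTH and 0 lower. The median log2 fold changes of the list were -1.10 for YKL-05-093, -0.15 for PTH and 1.01 for PTH against YKL-05-093. The list was written when the fall of some of its genes in these libraries was known, so its count is no independent evidence. The kinase panel of the study also listed MEK1, MEK2 and SRC among the kinases that YKL-05-093 reduced. The source of the lower values was not tested. Egr1, an immediate early transcription factor, was at 6.43 ± 0.492 RPKM in vehicle, 3.76 ± 0.906 with PTH and 1.21 ± 0.482 with YKL-05-093 (-2.36 for YKL-05-093 against vehicle, adjusted p = 0.0200). Dusp6, the phosphatase of ERK, and Spry4, an inhibitor of receptor signals, had log2 fold changes of -2.90 (adjusted p = 0.00229) and -2.56 (adjusted p = 0.0183) after YKL-05-093, and Egr2 had -2.58 (adjusted p = 0.00881) after YKL-05-093 and -1.09 (adjusted p = 0.0259) after PTH.

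After PTH, Spry1, another inhibitor of receptor signals, fell from 4.98 ± 0.166 to 1.70 ± 0.266 RPKM (log2 fold change -1.50, adjusted p = 0.00901), and it was at 1.19 ± 0.0760 RPKM after YKL-05-093 (-1.98, adjusted p = 0.00881). The transcription factor Myc fell after PTH from 14.3 ± 0.376 to 7.44 ± 0.241 RPKM (-0.93, adjusted p = 0.0278) and was at 8.98 ± 1.53 after YKL-05-093 (-0.67, adjusted p = 0.240). Etv5, an ETS factor that follows FGF signals, was at 2.43 ± 0.163 RPKM after PTH and 0.668 ± 0.0159 after YKL-05-093 (1.72, adjusted p = 2.66e-07), with 2.40 ± 0.000779 in vehicle, and was lower after YKL-05-093 than in vehicle (-1.71, adjusted p = 0.0137). Dusp4 was also higher after PTH than after YKL-05-093 (1.53, adjusted p = 0.00011).

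The directions of the 8 list genes called for PTH against vehicle and the 10 called for YKL-05-093 held in all 16 alternatives of each, while many calls did not. Without either PTH library, Shc2 alone of the 8 passed, and without a filter on low values none of the 18 calls passed (adjusted p from 0.0555 to 0.276). Without vehicle replicate 1, most of the 10 calls for YKL-05-093 were lost. There Kdr stood at 1.54, Hgf at 1.63 and Socs5 at -1.17, and the calls of these 3 were also lost without either YKL-05-093 library.

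For the 3 members that passed in the direct comparison, the tested genes with the most similar log2 profile over the 6 libraries were named as a description. They were Zfp677 (Pearson r = 0.996), Ezr (0.993) and Phf6 (0.993) for Fgfr1, St3gal5 (0.996), St13 (0.996) and Wscd2 (0.993) for Fgfr3, and Adam9 (0.993), Mbd1 (0.993) and Tln2 (0.991) for Igf1r. The 6 points share the gap between the vehicle libraries. St13 ranged only from 103 to 124 RPKM, so a profile of the same shape can belong to a far smaller change.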

How the data were processed

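RNA-seq of 6 libraries was used, 2 each of vehicle, PTH and YKL-05-093. The authors depleted ribosomal RNA, used STAR (mm10/GRCm38) for mapping and HTSeq 0.6.0 with Ensembl release 75 for counting and deposited linear RPKM values without scaling between libraries (the processing notes also name CASAVA 1.7). The gene lengths used were not given in the sources used here. All 6 tables of single libraries hold the same values as the series table. The reads behind the RPKM were recovered from the steps between values, with lengths and library totals for which all values are whole reads. All 26214 genes above 0 came out whole (tolerance 0.01 read), as the search required. Totals are in the range given with the levels, and more reads give a smaller counting error.

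The tests were run with limma 3.58.1 (R 4.3.3) after a pseudocount of 0.1 RPKM and a log2 transform. The filter, 0.5 RPKM or more in 2 or more libraries, left 14264 genes. The fit had a prior variance trend on mean log2 recovered reads and was made separately for the 4 libraries of each comparison, and with Benjamini-Hochberg adjustment over all tested genes. Fold changes in words are ratios of mean RPKM. The study used a count test with a 2-fold limit, and limma was used because the deposited values are not counts. The members, lists and test settings were chosen with earlier results of these data known, and this setting was picked after the calls of several had been seen. All members are named. From each list and comparison, up to 4 genes are named, those with the largest change among genes past the test whose groups did not overlap and whose mean reached 50 reads. Gas6, Igf2, Ctbp2, the marker genes, and Spry1, Etv5 and Myc for YKL-05-093 against vehicle were named outside this rule, after their values were seen. For each member past the test, the 3 most correlated genes are named. The fit was tested on simulated data. Alternatives were other pseudocounts, filters, variance trends, scaling, voom, a replicate block, a single fit, each library left out and, added later, removal of a length trend (lowess, span 0.3). Positions and overlaps come from GENCODE M21 (GRCm38), which held 37607 of the 39179 identifiers.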

Additional observations from a re-analysis of the deposited data

How the results depend on the processing

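The counts below are genes past the adjusted p-value, in the order PTH against vehicle, YKL-05-093 against vehicle and PTH against YKL-05-093. With the settings of the report they were 0, 0 and 3 members, 8, 10 and 36 genes of the pathway lists, and 313, 95 and 1421 of all tested genes. Pseudocounts of 0.01 and 1 RPKM, a filter of 1 RPKM, median-ratio scaling and voom kept all 9 counts within 1.5 times, except a pseudocount of 1 RPKM for YKL-05-093 against vehicle (6 list genes, 55 of all genes). The members' calls did not change under pseudocounts, and Egfr joined those of the direct comparison under the filter of 1 RPKM, median-ratio scaling, voom and removal of the length trend.

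Requiring more than 2-fold as well left 0 members, 13 list genes and 172 of all genes in the direct comparison, and 5 list genes for PTH. Without a filter on low values, 0, 0 and 0 members, 0, 0 and 12 list genes, and 0, 0 and 302 of all genes passed, and Erbb3 could be fitted (adjusted p from 0.633 to 0.944 in the 3 comparisons). With the variance trend on the mean log2 value the counts were 0, 0 and 2 members, 3, 1 and 20 list genes and 162, 6 and 499 of all genes, and without a trend 0 members in the direct comparison, 1, 2 and 4 list genes and 130, 29 and 51 of all genes. With all 6 libraries in a single fit, 0 members and 11 list genes passed in the direct comparison, 19 list genes passed for YKL-05-093, and 567, 285 and 146 of all genes passed. For each gene, that fit pools the spread of all groups, the vehicle pair among them.

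After removal of the length trend, 2 and 1 members, 15 and 20 list genes and 885 and 438 of all genes passed against vehicle. In a single fit after that removal, 4 and 3 members, 25 and 24 list genes and 1475 and 886 of all genes passed against vehicle, and 2 members and 496 of all genes in the direct comparison. These 2 alternatives were chosen after seeing the data.

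Whether the replicate numbers pair the libraries is not given in the sources used here. Same-numbered libraries had deviations from their group means that correlated by -0.03 to -0.05, which cannot settle how they were handled. With the replicate block, the members' counts stayed at 0, 0 and 3, and the counts against vehicle moved to 14 and 21 list genes and 758 and 301 of all genes.

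With each library left out in turn, the members past the test ranged from 0 to 5 for PTH, 0 to 3 for YKL-05-093 and 0 to 2 in the direct comparison. List genes ranged from 1 to 46, 2 to 37 and 0 to 20, and all genes from 14 to 4507, 11 to 2726 and 0 to 410. The high counts came without vehicle replicate 2, and those of 0 in the direct comparison without either PTH library. Without YKL-05-093 replicate 1 the members called there were Fgfr1 and Fgfr3, and without YKL-05-093 replicate 2 Fgfr1.

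For the 27 values of members, 370 of 429 alternatives kept direction and side of the threshold, 24 newly passed, 20 no longer passed and 15 changed sign. Sign changes were seen for values of up to 0.36 in size (Met after PTH). Fgfr2 after PTH (-0.01) stood at 0.020 under median-ratio scaling and at 0.15 after removal of the length trend in both kinds of fit. With each library left out in turn, values against vehicle for PTH ran from -0.22 to 0.20 for Fgfr2, -0.023 to 0.74 for Met and -0.061 to 0.70 for Igf1r. Those for YKL-05-093 ran from -0.15 to 0.27 for Fgfr1, -0.17 to 0.25 for Fgfr2 and -0.28 to 0.0075 for Axl. For Igf1r they ran from -0.36 to 0.40, and for Insr from -0.081 to 0.51. In the direct comparison they ran from -0.041 to 0.17 for Erbb2 and -0.043 to 0.017 for Axl. The cause of these changes was not tested. For Erbb3, with at most 13 reads, depth limits what can be seen.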
